A study of Mus musculus with 2 samples.

Results

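The nuclear-encoded respiratory chain genes, which code for subunits of complex I, complex III, complex IV and ATP synthase from chromosomes of the nucleus, were examined in WT islet cells and in islet cells lacking ghrelin (GKO, ghrelin knockout). They were chosen by symbol alone, as genes whose names begin with Ndufa, Ndufb, Ndufc, Ndufs, Ndufv, Uqcr, Cox4i, Cox5, Cox6, Cox7, Cox8 or Atp5, without Ndufa4l2, the Ndufaf assembly factors and names with -ps. The rule gave 80 of the 27998 genes in the feature table, of which 37 belonged to complex I, 8 to complex III, 18 to complex IV and 17 to ATP synthase. Ndufa4 was counted with complex I by its symbol, although it is now known as a subunit of complex IV. Atp5s and Atp5sl match by symbol without being classical subunits of the enzyme.

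The GKO mice carried the ghrelin deletion on both alleles, in all cells and from the germ line on, and the WT mice were littermates from the same crosses of GKO1 heterozygotes on a C57BL/6N background. Islets of 4 mice at 8 weeks of age, fed standard chow ad libitum, were pooled per genotype after collagenase digestion, and live single cells were sorted by flow cytometry for droplet-based sequencing of transcript 3′ ends. Each genotype was thus 1 pool and 1 library. Genotype, pool, digestion, sort and library therefore cannot be told apart, and no test between genotypes was possible. The paper reports that more GKO than WT islet cells entered the sort, yet fewer live single GKO cells came out. It proposes that GKO β cells were possibly more fragile during handling, which was not tested here. All intervals given are 95% intervals that cover counting error only, by exact Poisson limits for unique molecular identifiers (UMIs, 1 per captured transcript) and by Clopper-Pearson limits for shares of barcodes.

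In the inner mitochondrial membrane, complex I (NADH dehydrogenase) takes electrons from NADH, complex III passes them to cytochrome c, and complex IV (cytochrome c oxidase) passes them to oxygen. These complexes pump protons out of the matrix, and ATP synthase makes ATP as protons flow back. Most subunits come from nuclear genes, while a small core set is encoded in mitochondrial DNA by the mt- genes, so that each of these complexes is assembled from both genomes. In β cells, ATP made from glucose closes ATP-sensitive potassium channels and thereby starts insulin release.

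Many nuclear respiratory genes carry sites for nuclear respiratory factor 1 (NRF1) near their start, so the promoters of the members were searched on both strands for the motif of GCGC and TGCGC with any base between them. Promoters came from RefSeq (GRCm38.p6) and were found by symbol for 64 of the 80 members. In the 250 bases before the start, 11 of these 64 (17.2%) held the motif, against 1144 of 27025 genes (4.23%). The 11 were Atp5c1, Atp5g2, Atp5h, Atp5k, Cox6a1, Ndufa11, Ndufa5, Ndufa8, Ndufb4, Ndufs5 and Ndufs6. A match is a string of letters, not an observed binding site. The stretches of 4 members are given 5′ to 3′ on the strand of the gene, ending before the first annotated exon, with the matches in capitals. Cox6a1, the common isoform of the pair set beside Cox6a2 below, held 2 matches (chr5:115348982-115349208, minus strand), and Ndufs5, a small complex I subunit, held 1 (chr4:123718203-123718436, minus strand). Uqcr11, a small complex III subunit that was lower in GKO in each class of cells, held none (chr10:80406831-80407071, minus strand), and neither did Cox5a, a complex IV subunit that was higher in nonendocrine barcodes than in the hormone classes (chr9:57520982-57521231, plus strand).
Cox6a1: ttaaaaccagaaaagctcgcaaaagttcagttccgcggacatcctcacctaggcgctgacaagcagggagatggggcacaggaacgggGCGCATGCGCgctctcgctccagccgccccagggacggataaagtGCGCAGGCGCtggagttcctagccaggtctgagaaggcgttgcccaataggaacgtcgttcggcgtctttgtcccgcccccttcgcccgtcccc
Ndufs5: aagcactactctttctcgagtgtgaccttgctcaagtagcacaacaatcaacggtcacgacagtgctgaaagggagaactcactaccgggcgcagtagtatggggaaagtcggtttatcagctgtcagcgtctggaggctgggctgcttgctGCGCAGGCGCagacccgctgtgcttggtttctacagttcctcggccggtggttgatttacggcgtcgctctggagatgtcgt
Uqcr11: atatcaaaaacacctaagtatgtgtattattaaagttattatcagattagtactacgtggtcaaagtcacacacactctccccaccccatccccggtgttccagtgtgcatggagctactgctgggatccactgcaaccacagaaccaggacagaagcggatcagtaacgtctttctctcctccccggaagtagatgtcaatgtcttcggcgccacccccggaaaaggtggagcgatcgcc
Cox5a: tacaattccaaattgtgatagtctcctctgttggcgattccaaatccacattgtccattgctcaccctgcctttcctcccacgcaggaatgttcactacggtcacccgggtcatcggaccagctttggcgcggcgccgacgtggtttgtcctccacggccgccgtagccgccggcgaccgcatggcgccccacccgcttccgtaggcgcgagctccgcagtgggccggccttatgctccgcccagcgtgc
Matches occurred among members of both directions between genotypes, as in Atp5k, which was lower in GKO in each class, and Atp5c1, whose ratio lay above 0 in each class.

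The WT library held 7792 barcodes and 158067110 UMIs, and the GKO library 7289 barcodes and 103511757 UMIs, and 18 barcode sequences occurred in both. After barcodes with under 500 genes or over 10% mitochondrial UMIs were left out, 7100 WT and 6346 GKO barcodes remained. They were placed by the hormone gene with most UMIs, where it reached 10% of the barcode's UMIs, into 2265 WT and 872 GKO insulin, 1048 and 1397 glucagon, 1414 and 1003 somatostatin, and 717 and 669 pancreatic polypeptide barcodes. The other 1656 WT and 2405 GKO barcodes were called nonendocrine. Ghrl, the targeted gene, had 43634 UMIs in WT and 280 in GKO. Defining transcription factors were read in the insulin and somatostatin classes, with Nkx6-1 at 107 and 125 CPM (UMIs per 1000000) in WT and GKO insulin barcodes, and Hhex at 211 and 224 CPM in somatostatin barcodes, although Mafa had only 2.21 and 4.24 CPM in insulin barcodes. No doublet caller was run, and 1.60% to 6.69% of the barcodes of a hormone class held a second hormone at 10% or more. A UMI stands for 1 captured transcript end, so CPM values were not divided by transcript length. Many of these genes have processed pseudogenes, which can take reads from short transcripts, and their absolute levels are uncertain for that reason.

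Summed over all 80 members, the respiratory chain genes took a slightly smaller share of the UMIs in GKO than in WT in each of the 5 classes. Insulin barcodes had 10562 CPM in the WT library and 10380 CPM in the GKO library (log2 of GKO over WT −0.03, −0.03 to −0.02). It was 17924 and 16577 CPM in glucagon barcodes (−0.11, −0.12 to −0.11), and 18633 and 17769 CPM in somatostatin barcodes (−0.07, −0.08 to −0.06). Pancreatic polypeptide barcodes had 12758 and 12240 CPM (−0.06, −0.07 to −0.05), and nonendocrine barcodes had 17959 and 16788 CPM (−0.10, −0.10 to −0.09). All of these differences were below the 0.25 (log2) used as the rule of size for a single gene. The 5 classes come from the same pair of libraries, so they are not independent readings of the genotypes.

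The low level in insulin barcodes went with their hormone load. Hormone genes, here Ins1, Ins2, Gcg, Sst and Ppy, took 61.3% and 59.2% of the UMIs of WT and GKO insulin barcodes. In nonendocrine barcodes they took 2.39% and 1.95%. With hormone genes left out of the total, the insulin class had the highest sum, with 27263 CPM in WT and 25430 CPM in GKO, and the nonendocrine class the lowest, with 18400 and 17122 CPM. Between them lay 24957 and 23151 CPM in glucagon barcodes, 24000 and 22784 CPM in somatostatin barcodes and 20207 and 19087 CPM in pancreatic polypeptide barcodes. This order was the same in both libraries, but Pyy and Iapp stayed in the total. Over all UMIs, Pyy had 118457 CPM in WT and 117846 CPM in GKO pancreatic polypeptide barcodes, and 53272 and 48774 CPM in somatostatin barcodes. Iapp had 40020 and 40991 CPM in insulin barcodes and 27883 and 30832 CPM in somatostatin barcodes. The order of the classes without these genes was not tested. Within the insulin class the sum without hormone genes followed the insulin share. Barcodes above 60% insulin had 28747 CPM in WT and 27166 CPM in GKO, and those at 25% to 60% had 25867 and 24116 CPM. The 53 WT and 37 GKO barcodes at 10% to 25% had 23567 and 22181 CPM, below the glucagon class.

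**Figure D1:**
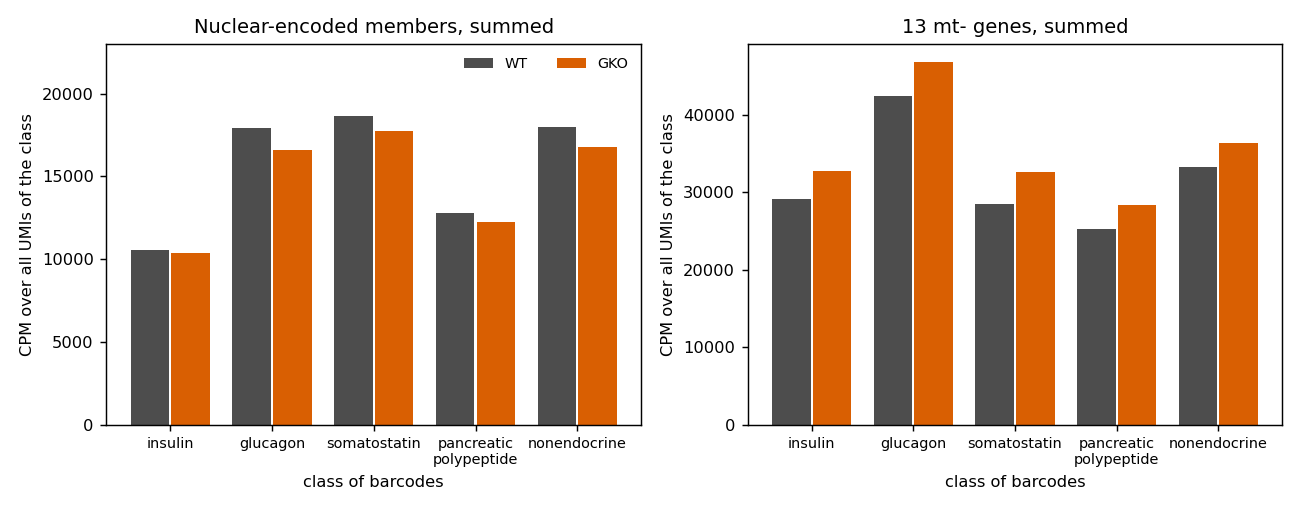
Summed level (CPM over all UMIs of a class) of the 80 nuclear-encoded members (left) and the 13 mt- genes (right) in each class of barcodes, with 1 bar per library and no error bars, since there was 1 library per genotype. The member sums of GKO lie just below those of WT, by 0.03 to 0.11 on the log2 scale, and the mt- sums of GKO lie above them.

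Single members were compared where their mean over both libraries reached 50 CPM. This limit was passed by 64 members in insulin, 69 in glucagon, 69 in somatostatin, 67 in pancreatic polypeptide and 71 in nonendocrine barcodes. In insulin barcodes 11 members were lower in GKO by at least 0.25 (log2), where 5.88% of the 1190 genes compared were lower, and 5 were higher, where 12.4% of genes were. In glucagon barcodes 15 members were lower (5.81% of 2170 genes) and 0 higher (4.84%). In somatostatin barcodes 14 were lower (6.31% of 2585 genes) and 1 higher (3.56%). In pancreatic polypeptide barcodes 12 were lower (5.1% of 1627 genes) and 2 higher (4.92%). In nonendocrine barcodes 14 were lower (14.2% of 3058 genes) and 1 higher (16.3%), so that the background of both directions was larger there. The median member ratio was 0.03, −0.02, 0.01, 0.02 and −0.03 in the 5 classes in this order, and the median of all genes compared was 0.11, 0.05, 0.03, 0.06 and 0.01. Ratios below 0 were held by 27 of 64 members in insulin (21.9% of all genes), 41 of 69 in glucagon (36.3%), 34 of 69 in somatostatin (39.6%), 32 of 67 in pancreatic polypeptide (32.9%) and 43 of 71 in nonendocrine barcodes (48.2%). The lower quartile of the members was −0.15 to −0.22 over the classes, and that of all genes compared 0.01 to −0.13.

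**Figure D2:**
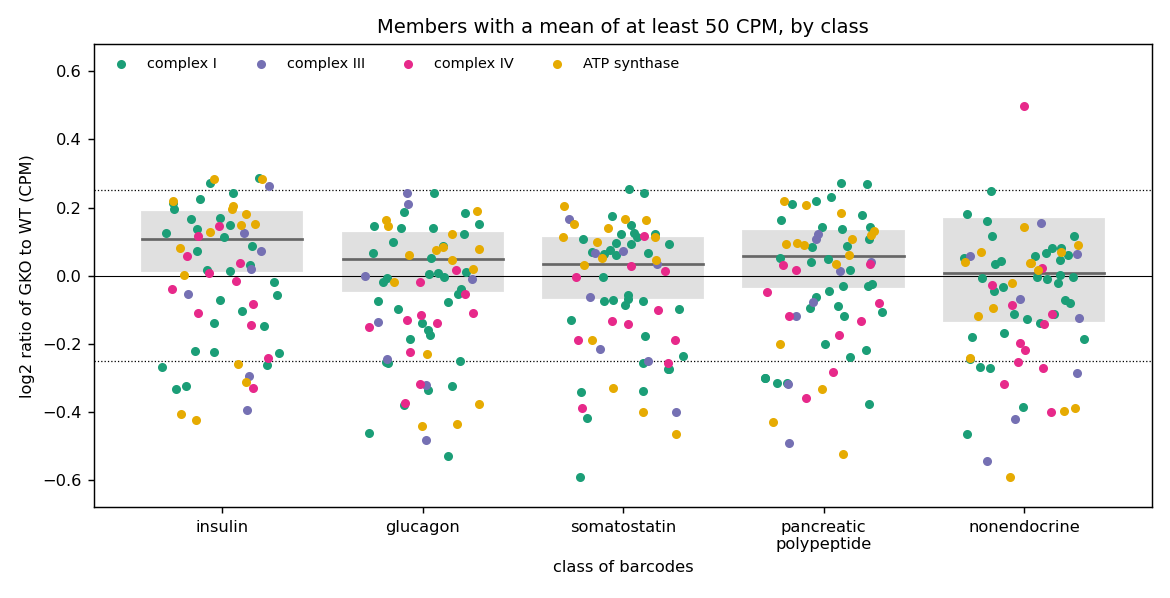
Log2 ratio of GKO to WT (CPM) of each member with a mean of at least 50 CPM, by class of barcodes and colored by complex. Gray boxes span the 25th to 75th percentile of all genes compared with their median as a line, and dotted lines mark −0.25 and 0.25. In each class more members lie below the lower line (11 to 15) than above the upper line (0 to 5).

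The lower members were largely the same genes from class to class. Of the 62 members that reached 50 CPM in all 5 classes, 7 were lower by the rule of size in each class, where 4.24% of the 967 genes measured in all 5 classes were. They were Atp5e, Atp5k and Atp5j2 of ATP synthase, Uqcr10 and Uqcr11 of complex III, Cox7c of complex IV and Ndufa1 of complex I. With these 7 included, 26 members lay below 0 in each class, and 18 lay above 0 in each class. Among all genes measured in the 5 classes, 14.1% lay below 0 and 26.4% above 0 in each. The 18 of 62 members above 0 in each class were thus close to the share of all genes. The remaining 18 members had ratios of both signs, and 0 members passed the rule in opposite directions in different classes. The share of all genes that did so is not given, so this count is not a result about the members. Another 10 members reached 50 CPM in some classes, and 8 (Ndufs1, Atp5s, Atp5sl, Cox6b2, Cox7a1, Cox7b2, Cox8b and Cox8c) in none.

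In ATP synthase, the members lower by the rule of size were the ε subunit and small subunits of the membrane part. Subunits of the catalytic head, the c ring and the peripheral stalk were not lower by this rule in any class. Atp5e, the ε subunit of the central stalk and the second most abundant member (mean of the 10 class sums 572 CPM), had 450 CPM in WT and 340 CPM in GKO insulin barcodes (log2 −0.41, −0.44 to −0.37), 1049 and 775 CPM in glucagon (−0.44), 645 and 489 CPM in somatostatin (−0.40), 558 and 414 CPM in pancreatic polypeptide (−0.43) and 568 and 434 CPM in nonendocrine barcodes (−0.39). Atp5k, the membrane subunit e, had 104 and 77.5 CPM in insulin barcodes (−0.43, −0.49 to −0.36) and ratios of −0.44, −0.46, −0.52 and −0.59 in the other classes, the last at 169 CPM in WT and 112 CPM in GKO nonendocrine barcodes. Its ratio was the lowest of all members in 3 classes, insulin, pancreatic polypeptide and nonendocrine. Atp5j2, the membrane subunit f, had 213 and 171 CPM in insulin barcodes and ratios of −0.31 to −0.40. Atp5l, the membrane subunit g, passed the rule only in insulin barcodes, with 408 CPM in WT and 340 CPM in GKO (−0.26), and had −0.19 to −0.24 in the others.

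In the catalytic part of the enzyme, the β and γ subunits lay above 0 in each class, as did the median of all genes compared. Atp5b, the β subunit that holds the catalytic sites, had 221 CPM in WT and 258 CPM in GKO insulin barcodes (log2 0.22), 403 and 465 CPM in somatostatin barcodes (0.21, 0.15 to 0.26) and 0.04 to 0.22 over the classes. Atp5c1, the γ subunit that turns within it, had 123 and 141 CPM in insulin barcodes and 0.08 to 0.20 over the classes. Atp5a1, the α subunit, had 170 CPM in both libraries in insulin barcodes and −0.09 to 0.05 over the classes, so it did not share the sign of the β and γ subunits in every class. None of the 3 passed the rule in any class.

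The proton-carrying ring is built of subunit c, which is made from 3 genes that code for the same mature protein. Atp5g1 had 218 CPM in WT and 265 CPM in GKO insulin barcodes (log2 0.28, 0.25 to 0.32), but 279 and 257 CPM in nonendocrine barcodes (−0.12). Atp5g3 had 82.5 and 100 CPM in insulin barcodes (0.28, 0.22 to 0.34) and 0.04 to 0.21 in the other classes. Atp5g2, the gene with most UMIs of the 3 in the other endocrine classes, had 500 and 506 CPM in glucagon barcodes and 0.02 to 0.13 over the classes. Of the stalk and coupling subunits, Atp5f1, Atp5h, Atp5o and Atp5d lay above 0 in each class, between 0.02 and 0.20. Atp5j had −0.02 to 0.13 and lay below 0 in 1 class. Summed over its 17 members, ATP synthase had 2997 CPM in WT and 2974 CPM in GKO insulin barcodes (−0.01) and ratios of −0.09, −0.02, −0.02 and −0.08 in the glucagon, somatostatin, pancreatic polypeptide and nonendocrine classes.

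In complex III the lower members were again small subunits. Uqcr11, the smallest subunit, had 201 CPM in WT and 153 CPM in GKO insulin barcodes (log2 −0.39, −0.44 to −0.35), 350 and 251 CPM in glucagon (−0.48), 316 and 239 CPM in somatostatin (−0.40), 226 and 161 CPM in pancreatic polypeptide (−0.49) and 272 and 186 CPM in nonendocrine barcodes (−0.54). Uqcr10, another small membrane subunit, had 147 and 120 CPM in insulin barcodes (−0.29) and −0.25 to −0.42 over the classes. Uqcrq passed the rule only in nonendocrine barcodes, with 236 and 193 CPM (−0.29). The larger subunits lay higher, as for Uqcrfs1, the Rieske iron-sulfur protein, with 114 and 132 CPM in glucagon barcodes (0.21, 0.12 to 0.30) and 0.06 to 0.21 over the classes. Uqcrc2, a core protein, had 58.0 and 69.6 CPM in insulin barcodes (0.26) and 99.7 and 118 CPM in glucagon barcodes (0.24, 0.15 to 0.34), while its partner Uqcrc1 had −0.07 to 0.07 over the 4 classes where it reached 50 CPM. The complex III sum stood at 1093 CPM in WT and 1042 CPM in GKO insulin barcodes (−0.07), and its ratio was −0.15, −0.10, −0.12 and −0.17 in the other classes.

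Complex IV had the abundant members Cox8a, with a mean of 664 CPM over the 10 class sums, and Cox4i1, with 563 CPM. Cox7c, a small membrane subunit, had 252 CPM in WT and 200 CPM in GKO insulin barcodes (log2 −0.33) and ratios of −0.37, −0.39, −0.36 and −0.40 in the other classes. Cox6c passed the rule in 4 classes, with 486 and 390 CPM in glucagon barcodes (−0.32), and had 281 and 238 CPM in insulin barcodes (−0.24). Cox8a, the ubiquitous isoform of subunit VIII, had 477 and 450 CPM in insulin barcodes and −0.08 to −0.14 over the classes. Cox4i1, the ubiquitous isoform of subunit IV, had 308 and 321 CPM in insulin barcodes and −0.03 to 0.06 over the classes. The matrix-side subunits Cox5a and Cox5b had −0.09 to 0.12 (4 classes) and −0.20 to −0.01 (5 classes). Cox7a2 passed the rule only in nonendocrine barcodes, with 365 and 293 CPM (−0.32), and so did Cox6b1, with 369 and 306 CPM (−0.27), while Cox7a2l, a factor in supercomplex assembly, had −0.12 to 0.03. Of the 4 complexes, complex IV and complex III had the lowest sums relative to WT in each class, with −0.08, −0.17, −0.12, −0.12 and −0.15 for complex IV in the 5 classes.

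In complex I, the lower members were accessory subunits, which surround the catalytic core. Ndufa1, a small membrane subunit needed for assembly, had 167 CPM in WT and 133 CPM in GKO insulin barcodes (log2 −0.33), 234 and 170 CPM in glucagon (−0.46, −0.53 to −0.39), 261 and 195 CPM in somatostatin (−0.42), 167 and 129 CPM in pancreatic polypeptide (−0.38) and 148 and 107 CPM in nonendocrine barcodes (−0.47). Ndufa3 had the lowest ratio of all members in glucagon barcodes, with 66.8 and 46.3 CPM (−0.53, −0.66 to −0.39), and in somatostatin barcodes, with 88.1 and 58.5 CPM (−0.59, −0.73 to −0.46). It had 112 and 86.0 CPM in nonendocrine barcodes (−0.39) and stayed under 50 CPM in the other 2 classes. Ndufa2 passed the rule in 4 classes, with 184 and 147 CPM in insulin barcodes (−0.32), and lay at −0.25 in nonendocrine barcodes.

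Other accessory subunits of complex I passed the rule in some classes. Ndufc1 passed it in 4 classes, with 173 CPM in WT and 145 CPM in GKO glucagon barcodes (log2 −0.25) and 214 and 169 CPM in somatostatin barcodes (−0.34), and Ndufv3 in the 4 hormone classes, with 222 and 177 CPM in glucagon barcodes (−0.32) but 143 and 136 CPM in nonendocrine barcodes (−0.07). Ndufa5 was lower in the insulin, glucagon and somatostatin classes (−0.26 to −0.27), and Ndufa7 in the glucagon and somatostatin classes (−0.25 and −0.27). Ndufa6, Ndufs5, Ndufs6, Ndufa13, Ndufb4 and Ndufb7 lay below 0 in each class without passing the rule, between −0.01 and −0.20. Ndufb8 and Ndufb9 lay above 0 in each class, between 0.06 and 0.20, and so did Ndufs4 in the 4 classes where it reached 50 CPM (0.05 to 0.19). Ndufb11, Ndufa8, Ndufa11, Ndufa12, Ndufb3, Ndufb5, Ndufc2 and Ndufa4 had ratios of both signs, from −0.19 to 0.23.

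Core subunits encoded in the nucleus carry the flavin and the iron-sulfur clusters of complex I. Ndufv2 had 63.2 CPM in WT and 76.2 CPM in GKO insulin barcodes (log2 0.27), 120 and 143 CPM in somatostatin barcodes (0.25, 0.16 to 0.35) and 108 and 128 CPM in nonendocrine barcodes (0.25, 0.16 to 0.33). Ndufs3 had 0.02 to 0.18, Ndufs7 0.09 to 0.14, Ndufs8 0.04 to 0.24 and Ndufv1 0.03 to 0.18, and Ndufs1 stayed under 50 CPM in each class, as with 17.4 and 19.6 CPM in insulin barcodes. Of the accessory subunits, Ndufab1, the acyl carrier protein, had 138 and 163 CPM in glucagon (0.24) and 111 and 130 CPM in pancreatic polypeptide barcodes (0.23), and Ndufa10 had 48.5 and 58.5 CPM in pancreatic polypeptide barcodes (0.27). Ndufb10 had the third highest ratio of the nonendocrine class at 0.18, with 182 and 206 CPM. Summed over 37 members, complex I had 3961 CPM in WT and 3983 CPM in GKO insulin barcodes (0.01), and −0.08, −0.06, −0.04 and −0.05 in the other classes.

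The direction of a member's ratio moved with the length of its transcript. The 7 members lower in each class had longest annotated transcripts (GENCODE vM21) of 371 to 955 nt, with a median of 434 nt, whereas the 18 members above 0 in each class had 682 nt or more, with a median of 1386.5 nt. All 62 members measured in the 5 classes had a median of 849.5 nt. The 5 members at 500 nt or below had a median log2 ratio of −0.39 in insulin, −0.44 in glucagon, −0.40 in somatostatin, −0.43 in pancreatic polypeptide and −0.47 in nonendocrine barcodes. In the same order of classes, other genes of that length without cytosolic ribosomal proteins had medians of −0.36, −0.24, −0.21, −0.27 and −0.18, from 7 to 15 genes per class. With ribosomal proteins kept in, these medians were −0.43, −0.39, −0.30, −0.40 and −0.27. Low ratios of short transcripts were thus present outside the respiratory chain as well. Between 500 and 700 nt the member medians were −0.02 to −0.12, and between 1500 and 3000 nt they were 0.05 to 0.20. Other genes without ribosomal proteins had medians of −0.03 to −0.08 and 0.05 to 0.12 in these ranges.

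Across members, Spearman's rho between ratio and longest transcript was 0.48, 0.55, 0.51, 0.53 and 0.46 in the 5 classes (64 to 71 members), and with the shortest transcript it was 0.63 to 0.69, given as a description because members share their libraries. Across the other genes without ribosomal proteins, rho was −0.19 to 0.02 (1023 to 2873 genes). Many of these genes were long, with 414 of 1023 beyond 3000 nt in insulin barcodes, against 3 of 64 members. The rho values of members and of other genes thus cover unlike lengths. Beyond 3000 nt the medians of the other genes were 0.10, 0.05, 0.01, 0.05 and −0.04 in the 5 classes. Those of the 3 members of that length were 0.24, 0.12, 0.13, 0.06 and −0.12. Ndufb2 was a member at odds with the pattern by its longest transcript of 4371 nt, with 159 CPM in WT and 126 CPM in GKO glucagon barcodes (−0.34) and −0.23 to −0.34 over the classes, but its shortest transcript has 455 nt. The part of transcript length in the lower ratios was not tested.

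**Figure D3:**
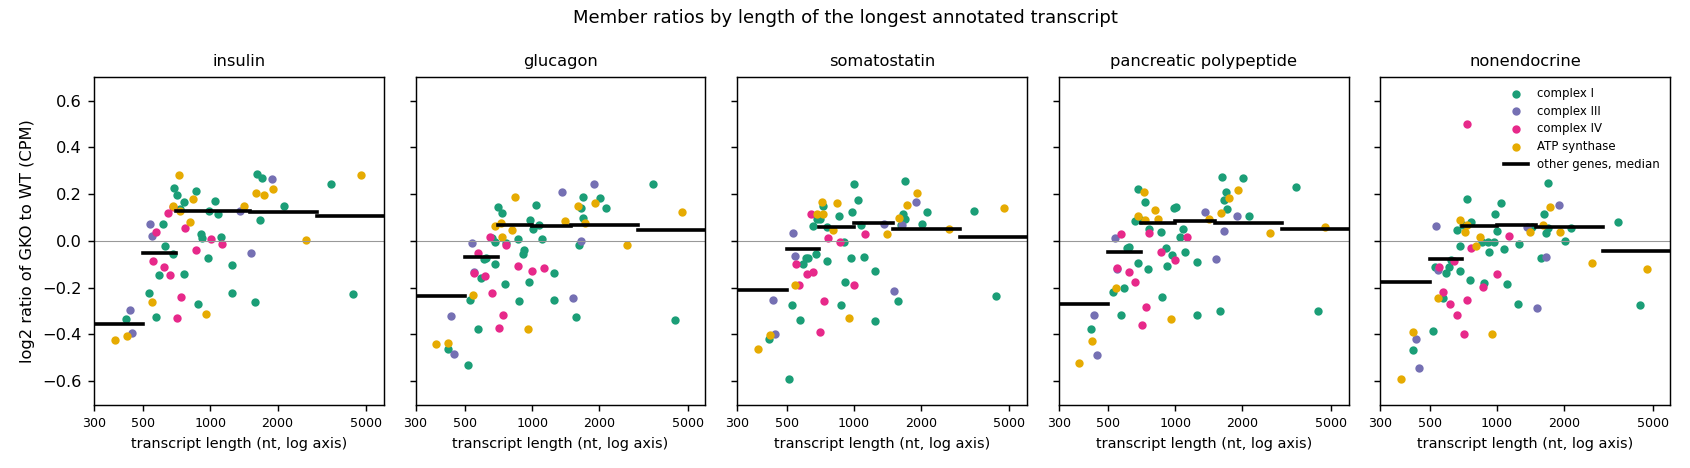
Log2 ratio of GKO to WT (CPM) against the length of the longest annotated transcript (nt, log axis) for members with a mean of at least 50 CPM, 1 panel per class, colored by complex. Black lines are medians of other genes without ribosomal proteins in 6 ranges of length. Members at 500 nt or below lie lowest, with medians of −0.39 to −0.47, and the black lines are also below 0 there.

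The sum of the 13 protein-coding mt- genes lay above that of WT in each GKO class, opposite to the nuclear sums. Together they had 29051 CPM in WT and 32722 CPM in GKO insulin barcodes (log2 0.17), 42456 and 46768 CPM in glucagon (0.14), 28454 and 32557 CPM in somatostatin (0.19), 25246 and 28311 CPM in pancreatic polypeptide (0.17) and 33244 and 36291 CPM in nonendocrine barcodes (0.13). Nuclear member UMIs per mt- UMI were accordingly lower in GKO, with 0.364 in WT and 0.317 in GKO insulin barcodes (log2 change −0.20), 0.422 and 0.354 in glucagon (−0.25), 0.655 and 0.546 in somatostatin (−0.26), 0.505 and 0.432 in pancreatic polypeptide (−0.23) and 0.540 and 0.463 in nonendocrine barcodes (−0.22). Barcodes over 10% mitochondrial UMIs, of which WT had 596 and GKO 882, were left out by this same quantity. With all deposited barcodes the nonendocrine change had the opposite sign, 0.14. Over all deposited barcodes, the median mitochondrial share was 3.09% in WT and 3.64% in GKO, and its part in these ratios was not tested.

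The mt- genes did not move as 1 block. mt-Cytb, the mitochondrial subunit of complex III, had 3824 CPM in WT and 4622 CPM in GKO insulin barcodes (log2 0.27) and 0.22 to 0.33 over the classes, passing the rule in 3 of them. mt-Nd2 had 1306 and 1611 CPM in insulin barcodes (0.30) and 0.20 to 0.30 over the classes. With hormone genes left out of the total, insulin barcodes had 9872 and 11324 CPM of mt-Cytb and 3372 and 3948 CPM of mt-Nd2. Neither passed the rule there, so their passing in insulin barcodes depended on the total used. Most others lay above 0 without passing the rule, such as mt-Co1 with 4698 and 5304 CPM (0.18), mt-Co2 with 3936 and 4239 CPM (0.11), mt-Co3 with 6203 and 6824 CPM (0.14), mt-Atp6 with 4562 and 5172 CPM (0.18), mt-Nd1 with 1419 and 1640 CPM (0.21), mt-Nd4 with 2219 and 2524 CPM (0.19) and mt-Nd5 with 362 and 390 CPM (0.11) in insulin barcodes. The short mt-Nd3 went the other way, with 266 CPM in WT and 185 CPM in GKO insulin barcodes (−0.53), 455 and 305 CPM in glucagon (−0.58), 205 and 124 CPM in somatostatin (−0.72), 253 and 181 CPM in pancreatic polypeptide (−0.48) and 307 and 213 CPM in nonendocrine barcodes (−0.53). mt-Nd4l had 203 and 165 CPM in insulin barcodes and −0.26 to −0.37 over the classes, and mt-Atp8 had 44.4 and 35.7 CPM and −0.09 to −0.32. mt-Nd4l overlaps mt-Nd4 and mt-Atp8 overlaps mt-Atp6 on the mitochondrial chromosome, so their counts are uncertain. mt-Nd6, from the opposite strand, had 9.04 and 8.81 CPM in insulin barcodes and 49.1 and 23.4 CPM in nonendocrine barcodes (−1.07). It stayed under a mean of 50 CPM in each class, and mt-Atp8 in the insulin, somatostatin and pancreatic polypeptide classes. Their ratios there lie below the limit used for comparison. mt-Nd3 (348 nt), mt-Nd4l (297 nt) and mt-Atp8 (204 nt) are the shortest of the 13 genes.

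The genes around the chain were read from lists. Of complex II, which feeds electrons from succinate, all 4 genes were listed and 1 to 4 reached 50 CPM per class, and 0 passed the rule in either direction, as Sdha with 55.4 CPM in WT and 57.4 CPM in GKO insulin barcodes (log2 0.05). Of the cytochromes c and c1, Cycs passed it in pancreatic polypeptide barcodes only, with 63.4 and 76.2 CPM (0.26), and had −0.02 in somatostatin barcodes. Of 33 assembly factors, 4 to 7 reached 50 CPM per class, and 1, Cox17, was lower in each class. Cox17, the copper chaperone of complex IV, had 83.9 and 60.9 CPM in insulin (−0.46), 163 and 119 CPM in glucagon (−0.46), 170 and 120 CPM in somatostatin (−0.50), 99.2 and 67.9 CPM in pancreatic polypeptide (−0.55) and 85.3 and 55.9 CPM in nonendocrine barcodes (−0.61). Coa3 lay at 0.07 to 0.20. Of 11 regulators of mitochondrial gene expression, only Yy1 reached 50 CPM, in 4 classes and without passing the rule (−0.12 to 0.08), so the nuclear respiratory factors themselves were too sparse to compare. Among the 4 carriers, the adenine nucleotide translocators Slc25a4 and Slc25a5, which exchange ADP and ATP across the inner membrane, were higher in insulin barcodes, with 121 and 148 CPM (0.30) and 92.9 and 114 CPM (0.29). Slc25a5 was also higher in somatostatin barcodes (0.26) and Slc25a4 in nonendocrine barcodes, with 322 and 403 CPM (0.32). Of all genes compared, 12.4% were higher by this rule in insulin, 3.56% in somatostatin and 16.3% in nonendocrine barcodes. Ratios of the carriers without hormone genes in the total are not given.

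Each library held all classes, so the pattern of a member over the classes was read within WT and again within GKO. A hormone class was set against the mean log2 level of the other 3 hormone classes, and nonendocrine barcodes against the mean of the 4, and a difference of at least 0.5 in the same direction in both libraries was taken as a pattern. Over all UMIs, 52 of 69 members were lower in insulin barcodes, but so were 71.1% of the 2086 genes compared, and 36 were higher in somatostatin barcodes, where 54.4% of genes were. Likewise 10 members were higher in glucagon (25.1% of genes) and 14 in nonendocrine barcodes (43.5%). These counts moved with the hormone load of the total, as the median gene of the WT insulin class lay at −0.80 with all UMIs and at 0.07 without hormone genes. Only Ndufa4 was lower in pancreatic polypeptide barcodes (11.8%), with −1.09 in both libraries.

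With hormone genes left out of the total, 71 members and 3047 genes could be compared, and most members were even over the classes. In insulin barcodes 9 members were higher (14.8% of genes) and 0 lower (9.26%). In glucagon barcodes 1 was higher, Atp5e (7.88%), and 3 were lower, Cox6a2 and Cox5a among them (7.12%). In somatostatin barcodes 1 was higher, Ndufa4 (10.3%), and 2 were lower, Cox6a2 among them (5.94%). Pancreatic polypeptide barcodes had 0 higher (4.53%) and 9 lower (18.6%), and nonendocrine barcodes 1 higher, Cox5a (15.9%), and 19 lower (33.7%). Wherever Cox6a2 counted as lower, the mean it was set against held insulin barcodes, where it was high. Cox6a2 reached the CPM limit only through insulin barcodes, so these entries do not describe the other classes. Pyy stayed in the total, and the median gene of the pancreatic polypeptide class lay at −0.21 in both libraries. The members higher in insulin barcodes included Ndufa4, Cox6a2, Cox5a, Uqcrq and Atp5g1, and 9 of 71 members is close to the 14.8% of all genes.

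Cox6a2, the isoform of subunit VIa known from heart and skeletal muscle, had the sharpest pattern (chr7:128205435-128206387, minus strand, GENCODE vM21 on GRCm38). With hormone genes left out of the total, it had 279 CPM in WT and 293 in GKO insulin barcodes. In the other classes it had 4.03 and 3.43 (glucagon), 1.85 and 2.34 (somatostatin), 2.202 and 3.41 (pancreatic polypeptide), and 2.68 and 2.66 (nonendocrine). Cox6a1, the common isoform, had 263 and 256 in insulin barcodes and 187 to 262 elsewhere, so that Cox6a2 gave 51.5% and 53.4% of the UMIs of both genes in insulin barcodes and 0.855% to 1.66% elsewhere. Between genotypes, Cox6a2 had 108 and 120 CPM over all UMIs in insulin barcodes (log2 0.15).

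At least 1 Cox6a2 UMI was found in 66.9% of WT (64.9% to 68.8%) and 66.3% of GKO insulin barcodes (63.0% to 69.4%), at median depths of 37124 and 35811 UMIs. In the other classes, whose median depths were 8053 to 21737 UMIs, the shares were 1.40% to 3.82%, which serves as the background. After each barcode was thinned to 5000 UMIs, insulin barcodes had 32.1% and 31.1% and the others 0.419% to 1.64%. Set against insulin transcripts, Cox6a2 had 2.84 to 6.61 UMIs per 10000 Ins2 UMIs in the other classes, against 2.53 and 2.87 in insulin barcodes. Within the insulin class the level followed the insulin share. Barcodes above 60% insulin had 424 CPM without hormone genes in WT and 461 CPM in GKO, those at 25% to 60% had 137 and 161, and those at 10% to 25% (53 and 37 barcodes) had 15.8 and 17.9.

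Ndufa4 had 464 CPM in WT and 463 CPM in GKO insulin barcodes on the same scale (CPM without hormone genes), 392 and 371 in somatostatin and 385 and 354 in nonendocrine barcodes, but 225 and 214 in glucagon and 153 and 148 in pancreatic polypeptide barcodes. Cox5a, a subunit on the matrix side of complex IV, was highest in nonendocrine barcodes as a whole, at 296 and 277. Its level differed between subsets of that class, as given below. It had 169 and 174 in insulin and 111 and 119 in somatostatin barcodes. The lowest values were 75.2 and 76.3 in glucagon and 75.9 and 79.98 in pancreatic polypeptide barcodes. In Ndufa4, Cox5a and Cox6a2 the classes differed by more than the libraries did.

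**Figure D4:**
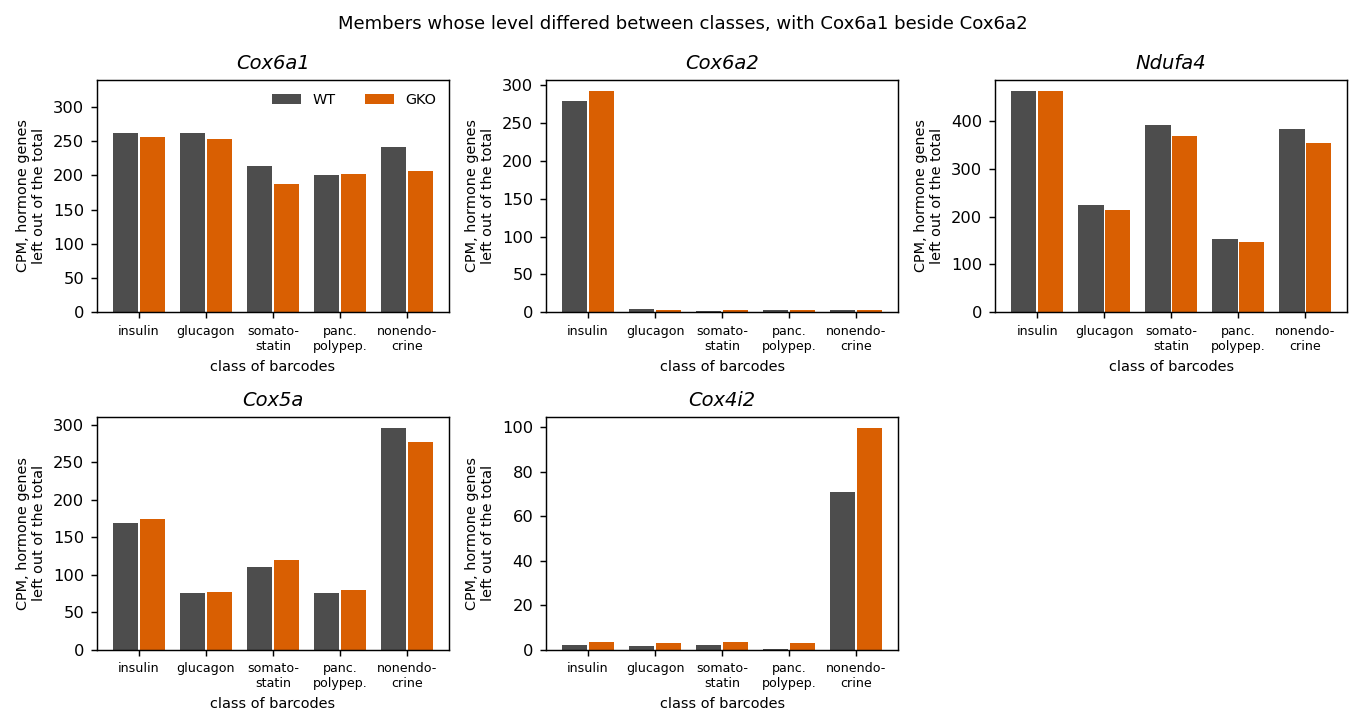
Level (CPM, total without hormone genes) of 5 members in each class of barcodes, with 1 bar per library and no error bars. Cox6a2 is present in insulin barcodes and at 4.03 or below elsewhere, Cox6a1 is even over the classes, Ndufa4 is lowest in pancreatic polypeptide barcodes, Cox5a is highest in nonendocrine barcodes, and Cox4i2 stands at 70.9 and 99.7 in nonendocrine barcodes and at 3.39 or below in the others.

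Cox4i2, the isoform of subunit IV known from lung and induced by low oxygen (chr2:152754173-152765037, plus strand), had 69.2 CPM in WT and 97.7 CPM in GKO nonendocrine barcodes (log2 0.50, 0.40 to 0.60) and 0.232 to 2.64 CPM in the hormone classes. It was the only member higher in GKO by the rule of size in the nonendocrine class, where Ndufv2 fell just short at 0.249. Nonendocrine barcodes were divided by the gene with most UMIs among Rgs5 (pericytes), Plvap (endothelium), Pdgfra (fibroblast-like stellate cells) and C1qa (macrophages), with at least 3 UMIs. Among Rgs5 barcodes, Cox4i2 stood at 707 CPM in WT against 704 CPM in GKO (−0.01, −0.12 to 0.10). Rgs5 barcodes made up 14.1% of the WT and 19.0% of the GKO nonendocrine barcodes, and Plvap barcodes 36.1% and 19.1%. The part of this cell makeup in the higher level of the class was not tested. Cox4i2 was found in 88.4% of WT and 83.6% of GKO Rgs5 barcodes, against 5.03% and 4.14% of Plvap barcodes and 0.840% and 1.22% of C1qa barcodes, at median depths of 5023 to 10546.5 UMIs. At 5000 UMIs per barcode, without the 115 WT and 202 GKO Rgs5 barcodes of lower depth, the shares in Rgs5 barcodes were 75.4% and 68.5%, and those in Plvap barcodes 3.99% and 3.51%.

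The lower members kept their direction within these subsets. Atp5k had 134 CPM in WT and 95.6 CPM in GKO Plvap barcodes (log2 −0.49), and −0.45, −0.33 and −0.49 in Rgs5, Pdgfra and C1qa barcodes. Uqcr11 had −0.49, −0.38, −0.67 and −0.47 in the same order. The member sum was 16210 and 15942 CPM in Plvap barcodes (−0.02), 22485 and 20816 CPM in Rgs5 barcodes (−0.11), 16539 and 15571 CPM in Pdgfra barcodes (−0.09) and 14734 and 14388 CPM in C1qa barcodes (−0.03). Ndufa4 stood out in Rgs5 barcodes, with 257 CPM in WT and 174 CPM in GKO (−0.57), while its ratio was 0.16, 0.06 and 0.01 in Plvap, Pdgfra and C1qa barcodes. Cox5a was uneven over the subsets, with 319 CPM in WT and 364 CPM in GKO Plvap and 305 and 341 CPM in C1qa barcodes. It had 189 and 182 CPM in Rgs5 and 154 and 172 CPM in Pdgfra barcodes. Ndufa4 and Cox5a were chosen here after their values were seen. Acinar markers also moved in the nonendocrine class, with all 4 detected in both libraries and summed levels of 7586 CPM in WT and 1200 CPM in GKO, against 45.9 to 240 CPM in the hormone classes. Their part in the nonendocrine ratios was not tested.

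The remaining tissue isoforms were at or near 0. Cox8c, a testis isoform, had 0 UMIs in all 10 class sums, and 0 of 2258 thinned WT insulin barcodes allows, at 3 counts, a share of barcodes with a UMI of up to 0.133%, which is no limit on the cells expressing the gene. Cox8b, a muscle isoform, had UMIs only in GKO nonendocrine barcodes (0.275 CPM), and Cox7b2 stayed at or below 0.276 CPM. Cox6b2 had 0.518 to 11.1 CPM, with the highest levels in nonendocrine barcodes, where Rgs5 barcodes had 26.3 CPM in WT and 24.5 CPM in GKO. Cox7a1, the muscle isoform of subunit VIIa, had 0.610 to 6.70 CPM, highest in somatostatin barcodes, where 7.21% of WT and 4.29% of GKO barcodes had a UMI (3.22% and 2.22% after thinning), against 1.36% to 2.83% of the barcodes of the other classes.

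Per barcode, the share of member UMIs varied within each class. As a percentage of UMIs without hormone genes, the median was 2.71 in WT and 2.54 in GKO insulin barcodes, 2.48 and 2.31 in glucagon, 2.40 and 2.28 in somatostatin, 2.05 and 1.93 in pancreatic polypeptide, and 1.76 and 1.64 in nonendocrine barcodes. The 5th and 95th percentiles were 2.01 and 3.50 in WT insulin and 0.954 and 3.09 in WT nonendocrine barcodes. The spread over barcodes, which includes counting error, was larger than the difference between libraries in every class. Median member UMIs per barcode ranged from 123 (GKO nonendocrine) to 374 (WT insulin). All barcodes kept had at least 1 member UMI. Over barcodes, Spearman's rho between the member share and the mitochondrial share was −0.08 to 0.03 in the insulin, glucagon and somatostatin classes, 0.35 in WT and 0.25 in GKO pancreatic polypeptide barcodes, and 0.44 and 0.42 in nonendocrine barcodes. These are descriptions within 1 library each, since barcodes share its depth and free RNA, and nonendocrine barcodes hold several cell types.

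**Figure D5:**
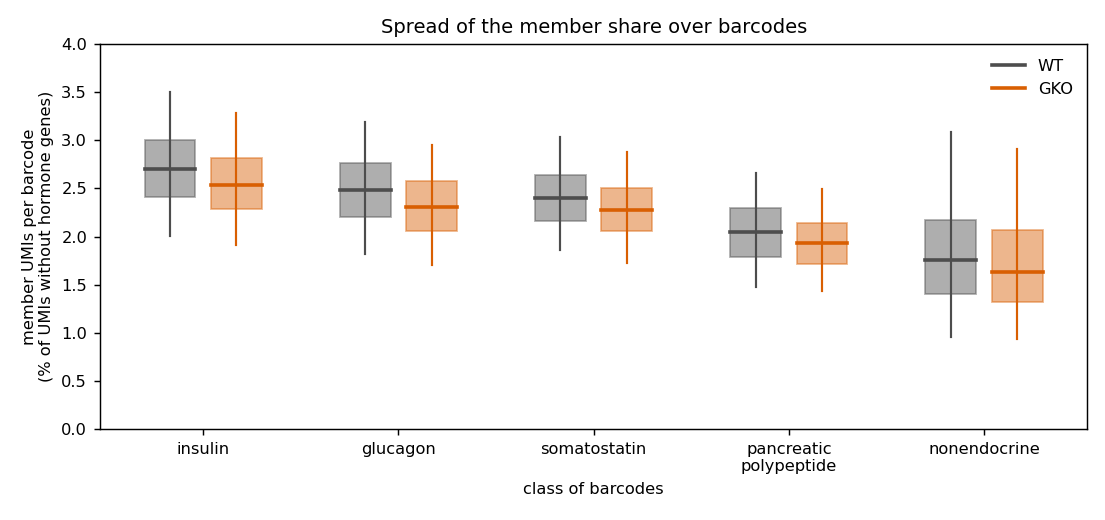
Share of member UMIs per barcode (% of UMIs without hormone genes) by class and library, with the median as a thick line, the 25th to 75th percentile as a box and the 5th to 95th percentile as a thin line. GKO medians lie below WT medians by less than the width of the boxes, as with 2.71% and 2.54% in insulin barcodes.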

How the data were processed

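Single-cell RNA-Seq was performed on sorted islet cells, 1 library per genotype. The authors mapped reads and counted UMIs with Cell Ranger 5.0.1 (mm10, from the submitters' processing notes), and the deposited values are raw UMI counts per gene and barcode. No ambient RNA was removed here. UMIs were summed by class and library and scaled to CPM, and exact 95% intervals were computed (scipy 1.17.1, numpy 2.4.6, pandas 2.3.3 and matplotlib 3.10.9 under Python 3.11.15).

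Genes were compared at a mean of 50 CPM or more, except that ratios of mt-Nd6 and mt-Atp8 below it are also given. Members and lists were chosen with earlier results of these data known. The genes named are the 3 highest and 3 lowest ratios per class, the 3 most abundant members, paired isoforms, core subunits, the mt- genes and the extremes of each pathway list, and others are named as examples after their values were seen. Some genes are not reported here. On simulated Poisson sums, intervals were checked against known ratios. These sums hold no spread between barcodes, mice or preparations, so the check covers counting error only. Alternatives changed the barcode filter, the classes, the total, the weighting, the depth and the CPM limit. Splits by transcript length and by insulin share, and counts over all 5 classes under the alternatives, were further alternatives, chosen after seeing the data.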

Additional observations from a re-analysis of the deposited data

How the results depend on the processing

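The cause of these differences was not tested. The summed member ratio stayed below 0 in each class and alternative, and 25 of 40 alternative values lay within the counting interval. With all deposited barcodes it was −0.038 in insulin and −0.059 in nonendocrine barcodes. It was −0.080 (nonendocrine) at up to 20% mitochondrial UMIs, −0.012 (insulin) and −0.073 (nonendocrine) with barcodes weighted equally, −0.037 (insulin) and −0.085 (somatostatin) with a leading hormone of 25%, and −0.087 (nonendocrine) without second hormones. Without hormone genes in the total it was −0.10 (insulin) and −0.082 (pancreatic polypeptide), and without hormone, mt- and ribosomal protein genes −0.11, −0.14, −0.081, −0.097 and −0.12 in the 5 classes.

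The log2 change of nuclear UMIs per mt- UMI reversed in nonendocrine barcodes with all deposited barcodes, at 0.14, and was −0.40 (insulin), −0.23 (glucagon), −0.34 (somatostatin) and −0.20 (pancreatic polypeptide) there. At up to 20% mitochondrial UMIs it was −0.25 (insulin), −0.24 (glucagon), −0.33 (somatostatin) and −0.26 (nonendocrine). With equal weights it was −0.17 (insulin), −0.24 (glucagon), −0.21 (pancreatic polypeptide) and −0.14 (nonendocrine), with a leading hormone of 25% −0.21 (glucagon), −0.23 (somatostatin) and −0.26 (pancreatic polypeptide), and without second hormones −0.24 (nonendocrine).

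The counts of members lower or higher in GKO below are given without the share of all genes under each alternative. They show how the counts moved and are not results about the members. Counts of members lower in GKO stayed within 1.5 times in most cases. Exceptions were 9 in nonendocrine barcodes with equal weights and 11 in all 5 classes without hormone, mt- and ribosomal protein genes. Members higher in GKO numbered 1 (glucagon) with all barcodes, at 20% and with equal weights, 3 (glucagon) and 4 (somatostatin) with a leading hormone of 25%, 2 (nonendocrine) with all barcodes, at 20%, with equal weights and without second hormones, and 2 (somatostatin) with equal weights. Without hormone genes in the total they numbered 0 (insulin), 0 (somatostatin) and 1 (pancreatic polypeptide). Without mt- and ribosomal protein genes as well, they numbered 0 in these 3 classes. Whether the 5 members higher in insulin barcodes passed the rule thus depended on the total used. Class patterns without hormone genes numbered 9 higher and 0 lower (insulin), 1 and 3 (glucagon), 1 and 2 (somatostatin), 9 lower (pancreatic polypeptide), and 1 and 19 (nonendocrine), as given above. Of 272 alternative values of named genes past the rule, 272 kept their direction and 252 stayed past it. All 7 members lower in the 5 classes remained so in 5 alternatives, and 5 or 6 of them in the other 3. Of the 18 members above 0 in all classes, 11 remained with a leading hormone of 25%, 17 without hormone genes in the total and 15 without hormone, mt- and ribosomal protein genes. Each genotype is 1 pool, so differences between mice or preparations cannot be told apart from genotype. No paired analysis was possible because each genotype has 1 library.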
